A study of Mus musculus with 6 samples.

Results

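The cadherins and protocadherins are 92 of the 46983 genes counted in this RNAseq experiment on sorted neural crest cells (NCCs). A gene was a member if its identifier carried, in GENCODE M21, a protein-coding symbol of the form Cdh, Pcdh with a number, or Pcdha, Pcdhb, Pcdhga, Pcdhgb or Pcdhgc. The rule used names only and no measured value. It found 18 classical cadherins, 5 other cadherins, 9 delta protocadherins, 3 other nonclustered protocadherins and 57 clustered protocadherins. GFP+ cells were sorted by FACS at E11.25 from 3 control and 3 BAF155/170-deficient embryos, all of which carried Wnt1 Cre/+ and the reporter Rosa26 mTmG/+. The controls were heterozygous (BAF155 flox/+ and BAF170 flox/+) and the deficient embryos homozygous (BAF155 flox/flox and BAF170 flox/flox) for both floxed alleles. BAF155 and BAF170 are core subunits of the BAF chromatin remodeling complex. The Wnt1-driven Cre is also active in the dorsal neural tube, and the reporter turns cells GFP+ once Cre has acted. Since Cre removes 1 copy of each floxed gene in the controls as well, no group here is wild type.

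Cadherins are calcium-dependent adhesion proteins whose extracellular repeats bind cadherins on the neighbouring cell. Classical cadherins of type I and type II anchor the junction to actin through catenins, and neural crest cells are known for changing their set of classical cadherins as they leave the neural tube and migrate. Delta protocadherins are nonclustered relatives with conserved cytoplasmic motifs, and those of the delta-2 branch recruit the WAVE actin-regulating complex. Clustered protocadherins come from 3 neighbouring gene arrays, alpha, beta and gamma. Alpha and gamma variable exons are spliced to exons shared within their array, and each neuron expresses its own choice of isoforms.

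Of the 92 members, 8 were lower in the BAF155/170-deficient libraries and 0 were higher. The 8 were the classical cadherins Cdh2 and Cdh11, the delta-2 protocadherins Pcdh8, Pcdh17, Pcdh18 and Pcdh19, and the gamma protocadherins Pcdhgb6 and Pcdhgc3. Calls needed 3 things: an adjusted p (Benjamini-Hochberg, edgeR's quasi-likelihood test over all genes) no higher than 0.1, a change of 0.58 or more on the log2 scale, and a mean of 2 CPM or more, CPM being counts scaled to library size. DESeq2 called the same 8 members, beside 6.26% of all genes called lower. Limma-voom called 7 of them, all but Pcdh19, beside 5.94%, and both called 0 members higher. Of the 16 members with an unadjusted p under 0.05 in edgeR's test, all 16 were lower. The share of all genes at that unadjusted p was not computed, so this count has no background beside it. Only 35 members passed the filter on low counts and were tested, and 57 did not. Over all 13961 tested genes, 4.88% were called lower and 0.0573% higher. At the adjusted p alone, 13 members were lower, where 7.75% of all genes were. In 19 of the tested members every deficient library lay below every control library, where 16.4% of all genes did. No tested member lay the other way round, where 2102 of the 13961 tested genes did. The log2 fold change was negative in 31 tested members and positive in 4, with a median of −1.01 over the members and of −0.018 over all tested genes.

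Markers of embryonic cells fell together with the members. Of 58 listed markers of mesenchymal crest, sensory neurons, autonomic neurons, glial crest and neural tube, 15 of the 47 tested were called lower. Their median log2 fold change was −0.92, with summed levels of 325 to 592 CPM in control libraries and 208 to 289 CPM in deficient libraries. The 12 markers of macrophages, cells outside the neural crest lineage, summed to 12277 to 14207 CPM in control libraries and 14298 to 15655 CPM in deficient libraries, and none was at 0. None of the 12 was called by edgeR, DESeq2 or limma-voom, and 9 had an unadjusted p under 0.05 in edgeR's test, all higher. Erythroid markers summed to 17.1 to 67.3 CPM and 10.1 to 16.3 CPM, with 0 of 7 tested genes called by edgeR, 3 lower by DESeq2, 1 lower by limma-voom and 3 at an unadjusted p under 0.05. The 92 members together held between 1623 and 1809 raw counts in every one of the 6 libraries, while the library totals ran from 8191219 to 19808620 the 3 deepest being the deficient ones. With the libraries scaled to 34 embryonic markers in place of all genes, 0 members were called lower and 2, Pcdh7 and Pcdh9, were called higher, at a median member log2 fold change of −0.037. Of all tested genes, 0.387% were then called lower and 63.8% higher. That scaling shifted the median of all genes to 0.91, so its fold changes are read against that shift. In bulk RNA a smaller share of cells of a type cannot be told apart from less RNA per cell. The part of these shifts in the members' lower levels was not tested.

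The calls also depended on single libraries. Without control replicate 1, and without deficient replicate 3, 0 members were called lower, at a lowest adjusted p of 0.214 and 0.111. Of all genes then tested, 0 of 14318 were called in either direction without control replicate 1, and 0.119% were called lower without deficient replicate 3. In the fit without control replicate 1, 15 of 37 tested members had an unadjusted p under 0.05, and without deficient replicate 3 it was 15 of 40. The share of all genes at that unadjusted p was not computed for these fits either. Without control replicate 2, 1 member was called lower (Cdh11) beside 0.426% of all genes, and without deficient replicate 2 there were 2 (Pcdh8 and Pcdh17) beside 1.53%. The count was 9 without control replicate 3, where 8.45% of all genes were lower, and 12 without deficient replicate 1, where 7.23% were. The targeted genes were measured in every library, with Smarcc1 (BAF155) at 42.0, 54.9 and 35.0 CPM in control libraries and 29.3, 26.3 and 24.4 CPM in deficient libraries, a log2 fold change of −0.71 (adjusted p = 0.0676). Smarcc2 (BAF170) had 91.6, 89.7 and 92.7 CPM against 85.7, 82.1 and 86.6 CPM, a log2 fold change of −0.11 (adjusted p = 0.251).

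**Figure D1:**
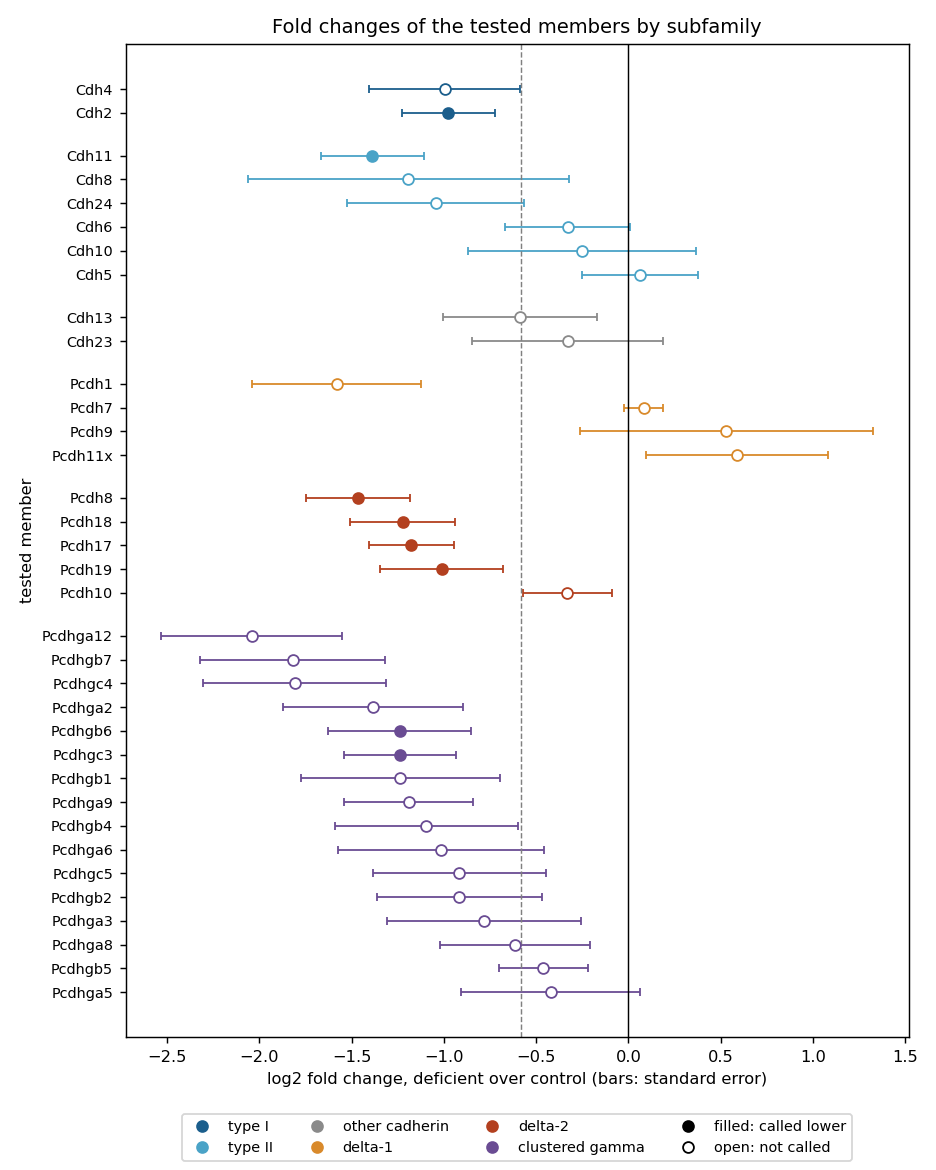
Log2 fold change, deficient over control, of the 35 tested members, grouped by subfamily, with bars for the standard error. Filled points were called lower, the solid line marks no change and the dashed line the fold threshold of −0.58; all 16 gamma and all 5 delta-2 points lie left of 0, whereas 3 of the 4 delta-1 points lie right of it.

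The delta-2 protocadherins held 4 of the 8 calls, and their start regions are shown because these 4 genes, called lower, can be set beside Pcdh10, the remaining member, which was not called. Each line gives the 150 bases before the annotated start, 5′ to 3′ on the strand of the gene, from RefSeq (GRCm38.p6). Capitals mark the letters ATTGG, the CCAAT box read on the other strand. The stretches are Pcdh8 at chr14:79771313-79771462 (minus strand), Pcdh17 at chr14:84443413-84443562 (plus), Pcdh18 at chr3:49757317-49757466 (minus), Pcdh19 at chrX:133688994-133689143 (minus) and Pcdh10 at chr3:45378248-45378397 (plus). In GENCODE M21 the last 9 bases for Pcdh18 belong to an exon of that gene. For Pcdh10, 13 bases overlap an annotated exon outside that gene, and the other stretches hold no exon.
Pcdh8: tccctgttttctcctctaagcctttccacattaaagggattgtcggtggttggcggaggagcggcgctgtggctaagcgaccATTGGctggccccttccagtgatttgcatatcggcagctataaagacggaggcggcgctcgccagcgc
Pcdh17: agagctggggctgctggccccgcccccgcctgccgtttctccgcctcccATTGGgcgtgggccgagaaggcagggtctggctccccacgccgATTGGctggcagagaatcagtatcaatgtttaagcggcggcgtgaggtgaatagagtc
Pcdh18: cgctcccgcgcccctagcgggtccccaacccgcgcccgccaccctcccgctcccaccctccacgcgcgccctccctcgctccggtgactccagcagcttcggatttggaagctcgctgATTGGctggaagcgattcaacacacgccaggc
Pcdh19: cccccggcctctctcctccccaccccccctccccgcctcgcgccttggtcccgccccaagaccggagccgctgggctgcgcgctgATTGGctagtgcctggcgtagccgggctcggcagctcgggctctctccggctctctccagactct
Pcdh10: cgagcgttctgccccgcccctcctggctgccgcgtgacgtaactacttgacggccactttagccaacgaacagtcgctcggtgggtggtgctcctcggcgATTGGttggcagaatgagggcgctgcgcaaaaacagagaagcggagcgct

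All 5 stretches hold at least 1 CCAAT box. It begins 68 bases before the start in Pcdh8, 58 and 101 bases in Pcdh17, 32 bases in Pcdh18, 65 bases in Pcdh19 and 50 bases in Pcdh10. In the same 150-base stretch of all 32851 RefSeq promoter windows, 24.5% hold the box on either strand, as do 56% of the 25 windows of members, these 5 included. The longer run ATTGGCT, which contains the box, occurs in the windows of Pcdh8, Pcdh17, Pcdh18 and Pcdh19 but not in that of Pcdh10. In windows from 250 bases before to 50 after the start it is present in 7.863% of all windows and in 7 of the 22 members matched by symbol, the other three being Cdh9, Cdh18 and Cdh20, none of which was tested. These letters were picked after the sequences had been read, and a match is a description and not a bound site. The Tead core GGAATG was found in 3 members (Cdh9, Cdh10 and Cdh20) and in 14.66% of all windows, and the E2-box CACCTG in 3 members (Cdh7, Pcdh7 and Pcdh15) and in 20.21% of all windows, both strands searched. Neither occurred in a delta-2 window.

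Among the delta-2 genes, Pcdh8 (paraxial protocadherin, linked to morphogenetic cell movements) had 5.52, 5.34 and 3.68 CPM in control libraries and 1.48, 1.58 and 2.08 CPM in deficient libraries. Every deficient library lay under the lowest control. The log2 fold change was −1.46 (SE 0.28, adjusted p = 0.0483), the lowest adjusted p of any member, shared with Pcdh17. Pcdh17 had 9.55, 11.7 and 6.80 CPM against 4.14, 4.63 and 3.55 CPM, again without overlap, and fell by 1.18 on the log2 scale (SE 0.23, adjusted p = 0.0483). These were the only members called at an adjusted p of at most 0.05, where 94 of all genes were called lower.

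Pcdh18 had 17.0, 22.2 and 12.5 CPM in control libraries and 10.3, 6.46 and 5.45 CPM in deficient libraries. It fell by 1.22 on the log2 scale (SE 0.28, adjusted p = 0.0749), and the highest deficient library stood close under the lowest control. Pcdh19, an X-linked gene that partners with Cdh2 in adhesion complexes, had 3.82, 9.34 and 4.83 CPM against 2.89, 3.54 and 2.37 CPM. Its log2 fold change of −1.01 (SE 0.33, adjusted p = 0.0987) lay just inside the threshold. Its call was kept in 1 of the 6 fits that left out a library, the one without control replicate 3, and without control replicate 2 the log2 fold change was −0.57. Pcdh10, which works in axon growth and cell migration, had 7.96, 9.74 and 6.14 CPM against 7.73, 6.64 and 4.55 CPM. Its groups overlapped, at a log2 fold change of −0.33 (SE 0.24, adjusted p = 0.397). Summed over the 5 genes, the level was 43.8, 58.3 and 34.0 CPM in control libraries and 26.6, 22.9 and 18.0 CPM in deficient libraries.

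The delta-1 protocadherins, the other delta branch, showed 0 calls among 4 tested genes in edgeR, DESeq2 and limma-voom, 1 unadjusted p under 0.05 (Pcdh1) and a median log2 fold change of 0.31. Pcdh7, the most abundant of them, had 16.2, 15.5 and 15.7 CPM in control libraries and 17.6, 17.1 and 15.7 CPM in deficient libraries. That is a log2 fold change of 0.08 (SE 0.11, adjusted p = 0.656), with the smallest standard error of the 8 most abundant members per length. Its raw counts ranged from 116 to 331 and followed the library totals, unlike those of Cdh2, which stayed between 173 and 226. Pcdh1 had 3.61, 3.74 and 1.39 CPM against 1.25, 1.10 and 0.568 CPM. At −1.58 (SE 0.46, adjusted p = 0.0829) it passed the adjusted p and the fold, but its mean of 1.94 CPM was under the minimum, so it was not called.

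Pcdh9 stood apart through 1 library. It had 4.14, 4.40 and 2.54 CPM in control libraries and 2.27, 11.5 and 2.04 CPM in deficient libraries, where deficient replicate 2 alone held 188 counts. The log2 fold change was 0.53 (SE 0.79, adjusted p = 0.718) with all libraries and −0.76 without deficient replicate 2. Pcdh11x, the remaining delta-1 member, singled out here after its values were seen, was also highest in deficient replicate 2, with 3.66 CPM there and 0.995 to 1.70 CPM in the other five libraries. Over all 9 delta genes, 4 were called lower, 5 passed the adjusted p, and the median log2 fold change was −1.01.

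**Figure D2:**
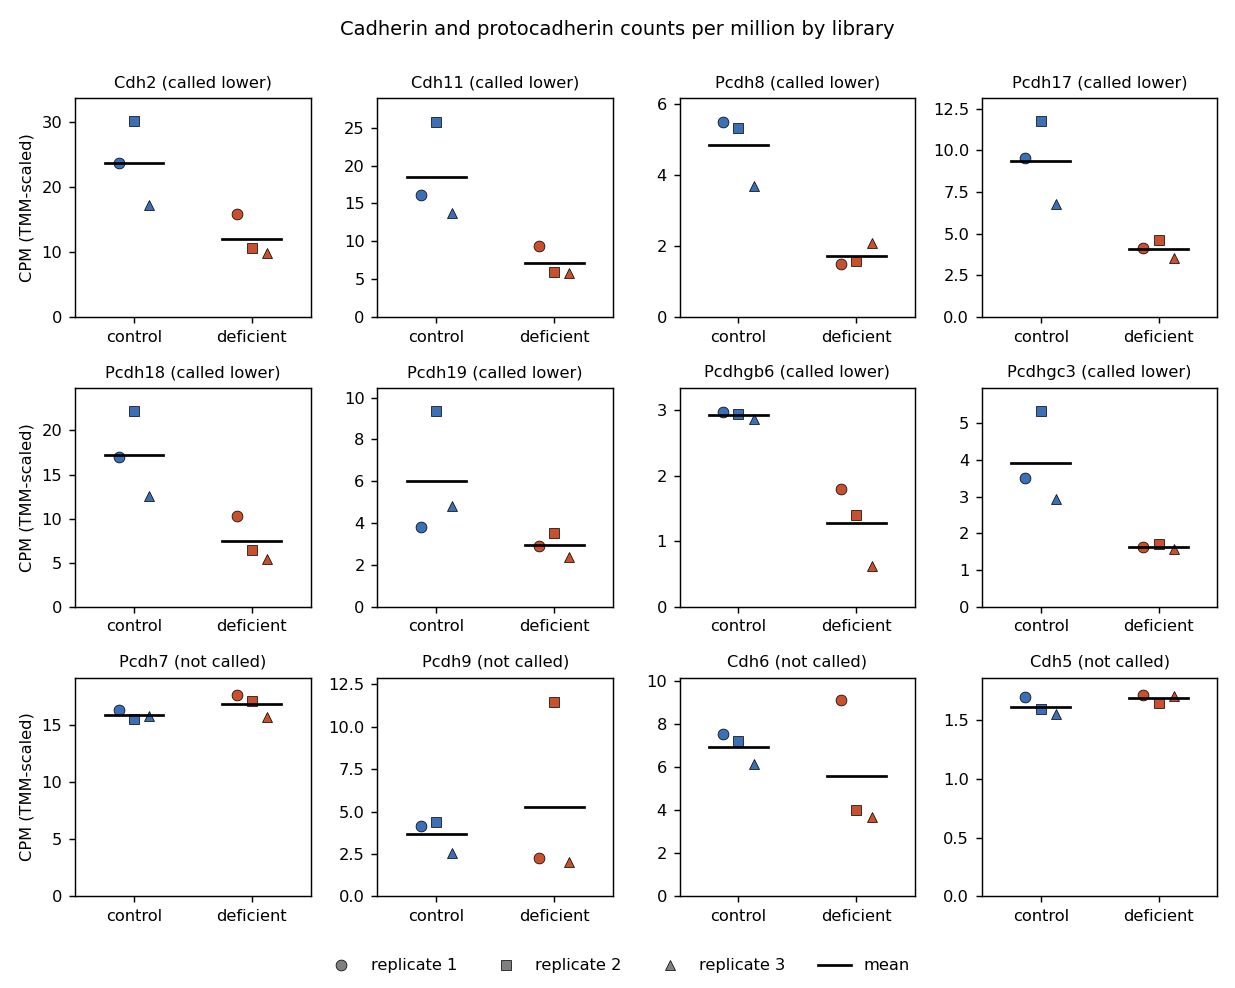
CPM on TMM-scaled library sizes (vertical axis, from 0) of the 8 called members and of Pcdh7, Pcdh9, Cdh6 and Cdh5 in the 3 control (blue) and 3 deficient (red) libraries, with symbols for replicate numbers and a line at each mean. The 8 called members show no overlap between groups, Pcdh7 and Cdh5 stay level, and Pcdh9 is high in deficient replicate 2 only, at 11.5 CPM.

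Classical cadherins had 2 calls among 8 tested genes of 18. Cdh2 (N-cadherin, the type I cadherin of neural tissue and many mesenchymal cells; chr18:16588877-16809246, minus strand, GRCm38) had 23.8, 30.2 and 17.2 CPM in control libraries and 15.8, 10.5 and 9.80 CPM in deficient libraries. The means were 23.7 ± 6.48 and 12.0 ± 3.26 CPM (SD, n = 3), the former the highest control mean of any member, and the log2 fold change was −0.98 (SE 0.25, adjusted p = 0.0861). Scaled to the embryonic markers, its log2 fold change was 0.016. Cdh11 (a type II cadherin of mesenchyme and migrating crest; chr8:102632095-102785642, minus strand) had 16.1, 25.8 and 13.7 CPM against 9.38, 5.97 and 5.87 CPM. It fell by 1.39 on the log2 scale (SE 0.28, adjusted p = 0.0625), from 18.5 ± 6.39 to 7.07 ± 1.99 CPM (SD, n = 3), and was called in 3 of the 6 fits that left out a library.

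With all 6 libraries no other classical cadherin was called. Cdh4 (R-cadherin) lay at 1.91, 2.27 and 1.47 CPM in control libraries and 1.33, 0.914 and 0.616 CPM in deficient libraries, without overlap, at −1.0 (SE 0.41, adjusted p = 0.145). Cdh24 had 5.52, 6.67 and 3.44 CPM against 4.69, 1.40 and 1.61 CPM, where deficient replicate 1 lay within the control range, and a log2 fold change of −1.04 (SE 0.48, adjusted p = 0.199). Without that library it was −1.76 (adjusted p = 0.0257) and called lower. Cdh6, known from premigratory crest, had 7.53, 7.21 and 6.14 CPM against 9.14, 4.02 and 3.69 CPM. Its highest value of all 6 was in deficient replicate 1 and its lowest in the other two deficient libraries, at −0.33 (SE 0.34, adjusted p = 0.567). Without deficient replicate 1 Cdh6 was at −0.85 (adjusted p = 0.0617) and called lower. Cdh8 and Cdh10 were near the filter, with log2 fold changes of −1.19 (adjusted p = 0.410) and −0.25 (adjusted p = 0.831).

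Cdh5 (VE-cadherin, the cadherin of endothelial junctions) was level at 1.70, 1.60 and 1.56 CPM in control libraries and 1.72, 1.65 and 1.71 CPM in deficient libraries, a log2 fold change of 0.06 (SE 0.32, adjusted p = 0.920). Of 8 other endothelial markers 5 were tested and 0 were called by edgeR, DESeq2 or limma-voom, with 1 at an unadjusted p under 0.05. Their sums, mostly of Kdr, were 174 to 196 CPM in control libraries and 200 to 212 CPM in deficient libraries, and Tek and Cldn5 were at 0 in some library. The epithelial cadherins Cdh1 (E-cadherin) and Cdh3 (P-cadherin) were not tested, with 3, 8 and 10 counts against 7, 5 and 10 for Cdh1, and 9, 13 and 2 against 9, 13 and 9 for Cdh3. The 8 epithelial markers were not tested either, and summed to 1.80 to 2.55 CPM and 0.625 to 1.65 CPM. Cdh19, a type II cadherin of the Schwann cell lineage, singled out after its values were seen, had 16, 12 and 5 counts in the controls and 3, 5 and 4 in the deficient libraries and was not tested. The remaining untested classical cadherins (Cdh15, Cdh7, Cdh9, Cdh12, Cdh18, Cdh20 and Cdh22) held 10 to 49 counts over all 6 libraries.

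The other cadherins, which lack the catenin-binding tail of the classical members, were at the edge of detection. Cdh13 (T-cadherin, held by a GPI anchor) had 1.70, 1.87 and 1.06 CPM in control libraries and 0.781, 0.792 and 1.37 CPM in deficient libraries, at −0.59 (SE 0.42, adjusted p = 0.388). Cdh23, a long cadherin of the hair cell tip link, had 0.849, 0.400 and 1.31 CPM against 0.781, 0.914 and 0.474 CPM, at −0.33 (SE 0.52, adjusted p = 0.722). The groups overlapped in both genes. Cdh16, Cdh17 and Cdh26 held 2 to 12 counts in all. The nonclustered Pcdh12, Pcdh15 and Pcdh20 were untested, with 21 to 40 counts in all. Pcdh15, the tip-link partner of Cdh23, had 11, 6 and 9 counts in the controls and 1, 8 and 5 in the deficient libraries.

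Clustered protocadherins were counted as 14 alpha, 22 beta and 21 gamma genes, all in 1 region of chromosome 18. No alpha or beta gene passed the filter, against 16 of the 21 gamma genes. Summed over its genes, the alpha cluster had 1.91, 4.80 and 1.15 CPM in control libraries and 1.09, 1.52 and 0.237 CPM in deficient libraries. The groups overlapped, and deficient replicate 3 held 5 alpha counts in all, from 2 genes. Among alpha genes, Pcdhac2 had 3, 4 and 3 counts against 5, 3 and 3, and Pcdhac1 had 1, 4 and 0 against 5, 1 and 0. A pair of identifiers share the symbol Pcdha11. Of these, the more abundant had 3, 12 and 4 counts in the controls and 1, 0 and 0 in the deficient libraries. Pcdha4 had 0 counts in every library, which allows up to 0.0382 CPM over all 6 libraries pooled (3 of 78514948 counts, counting error only). In a single library the same bound was 0.151 to 0.366 CPM. Only 8.56% of the exon length of Pcdha4 belongs to no other gene, so these bounds hold for assigned counts and not for its expression.

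The beta cluster, whose genes share little exon sequence with their neighbours in the annotation, summed to 2.12, 6.27 and 2.62 CPM in control libraries and 2.58, 1.95 and 2.23 CPM in deficient libraries. The control value of 6.27 CPM was control replicate 2, and the other five libraries lay between 1.95 and 2.62 CPM. Between 10 and 18 of the 22 beta genes had at least 1 count in a library. The most counts were held by Pcdhb22, with 0, 4 and 2 in the controls and 8, 5 and 12 in the deficient libraries. Pcdhb19 had 2, 4 and 2 against 5, 5 and 3, and Pcdhb16 had 2, 7 and 1 against 1, 0 and 7. At these counts no beta gene passed the filter, so none was tested for a difference in the fit used for calls.

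Gamma protocadherins made up most of the clustered signal. Their summed level was 35.9, 47.0 and 30.0 CPM in control libraries and 23.8, 17.5 and 13.3 CPM in deficient libraries, or 37.6 ± 8.64 against 18.2 ± 5.32 CPM (SD, n = 3), a ratio of 0.484. The groups did not overlap. In raw counts the same sums were 338, 352 and 366 against 305, 287 and 280. All 16 tested gamma genes had a negative log2 fold change, from −2.04 to −0.42 with a median of −1.14. In 11 of them the deficient libraries all lay below the controls, where 16.4% of all tested genes did. Only 2 gamma genes were called. Pcdhgb6 (chr18:37742094-37841873, plus strand) had 2.97, 2.94 and 2.87 CPM in control libraries and 1.80, 1.40 and 0.616 CPM in deficient libraries, at −1.24 (SE 0.39, adjusted p = 0.0924). Its 3 controls lay closer together than the deficient libraries. Pcdhgc3 (chr18:37806364-37841873, plus strand), 1 of the 3 C-type isoforms, had 3.50, 5.34 and 2.95 CPM against 1.64, 1.71 and 1.56 CPM. It fell by 1.24 on the log2 scale (SE 0.30, adjusted p = 0.0676).

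Pcdhgb5, the gamma gene with the highest mean CPM over all 6 libraries, was not called. It had 3.50, 3.60 and 3.52 CPM in control libraries and 2.73, 2.38 and 2.61 CPM in deficient libraries, without overlap but with a log2 fold change of only −0.46 (SE 0.24, adjusted p = 0.243). Pcdhgb4 had 2.55, 4.94 and 1.64 CPM against 2.27, 0.731 and 1.23 CPM, which overlapped, at −1.10 (SE 0.50, adjusted p = 0.184). A further 4 gamma genes, named after their values were seen, passed the adjusted p and the fold but had means under 2 CPM: Pcdhga12, Pcdhgb7, Pcdhgc4 and Pcdhga9. Of these, Pcdhga12 had the largest log2 fold change of any tested member, −2.04 (SE 0.49, adjusted p = 0.0660), from 4.24, 3.34 and 1.56 CPM to 1.25, 0.488 and 0.521 CPM. Pcdhgb7 was at −1.82, Pcdhgc4 at −1.81 and Pcdhga9 at −1.19.

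Within the gamma counts, the share of single isoforms also varied. Pcdhgb5 took 9.76%, 7.67% and 11.7% of all gamma counts in the controls and 11.5%, 13.6% and 19.6% in the deficient libraries. Pcdhga12 took 11.8%, 7.10% and 5.19% against 5.25%, 2.79% and 3.93%. The groups overlapped for both genes, and no test was made on shares of so few counts. By subgroup the sums in the controls and the deficient libraries were 15.8 ± 3.77 and 7.88 ± 2.69 CPM for the 12 A-type genes, 14.8 ± 2.93 and 7.51 ± 2.38 CPM for the 6 B-type genes, and 7.02 ± 2.0 and 2.81 ± 0.465 CPM for the 3 C-type genes (SD, n = 3). The gamma genes overlap each other in the annotation, and between 33.2% and 68.5% of the exon length of a gamma gene belongs to no other gene, against 8.56% to 61.1% for alpha and 90.3% to 100% for beta. How reads in shared exons were assigned is not given in the sources used here, so gene-level values within the alpha and gamma clusters are uncertain.

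**Figure D3:**
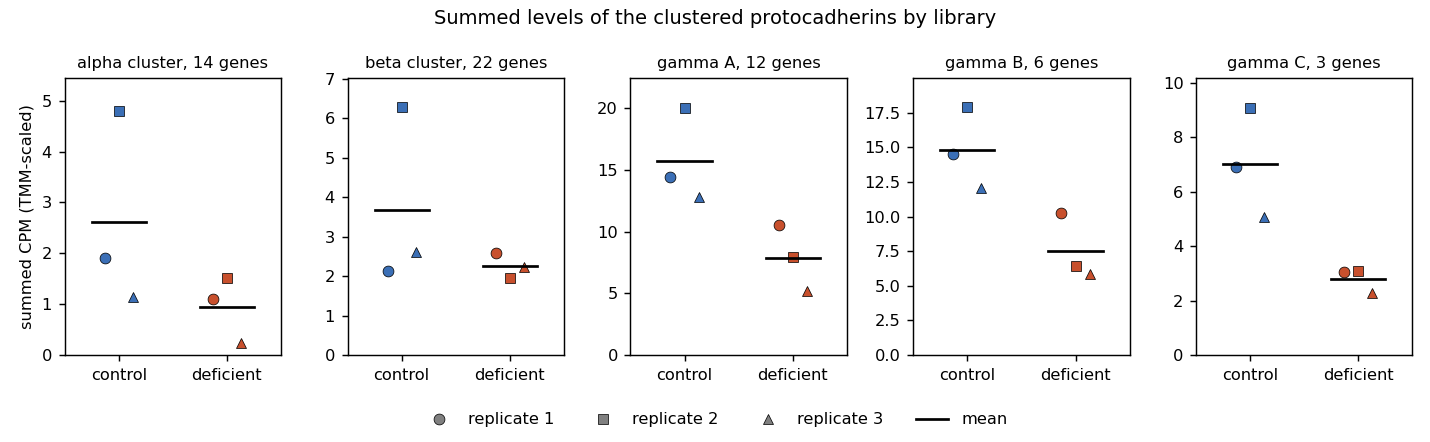
Summed CPM on TMM-scaled library sizes (vertical axes, each from 0) of the alpha and beta clusters and of the A, B and C types of the gamma cluster in the 3 control (blue) and 3 deficient (red) libraries, with symbols for replicate numbers and a line at each mean. The 3 gamma sums lie lower in every deficient library than in any control, while the alpha and beta sums overlap and control replicate 2 is the highest in both, at 4.80 and 6.27 CPM.

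Levels of different genes were compared as CPM per kilobase of exon length that belongs to no other gene. On that scale the order of the control means was Pcdh18 (3.21), Cdh2 (2.94), Cdh11 (2.08), Cdh24 and Pcdh7 (both 1.49), Pcdhgc3 (1.16), Pcdhgb6 (1.14) and Pcdh8 (1.07), with all other members below 1. The levels of the gamma genes assume that no read in a shared exon was counted for them. The sources used here do not state this, so the places of Pcdhgc3 and Pcdhgb6 in this order are uncertain. Neighbours in this order differed by less than the larger of their SDs between control libraries, except Cdh2 and Cdh11, which differed by 0.859 at a larger SD of 0.804. In the deficient libraries the level was 1.58 for Pcdh7, 1.49 for Cdh2, 1.38 for Pcdh18 and 0.794 for Cdh11. By these means Pcdh7 ranked 5 in the controls, 0.00208 under Cdh24, and 1 in the deficient libraries. The differences in the deficient libraries were not set against the SDs there, so this change of rank is a description only.

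**Figure D4:**
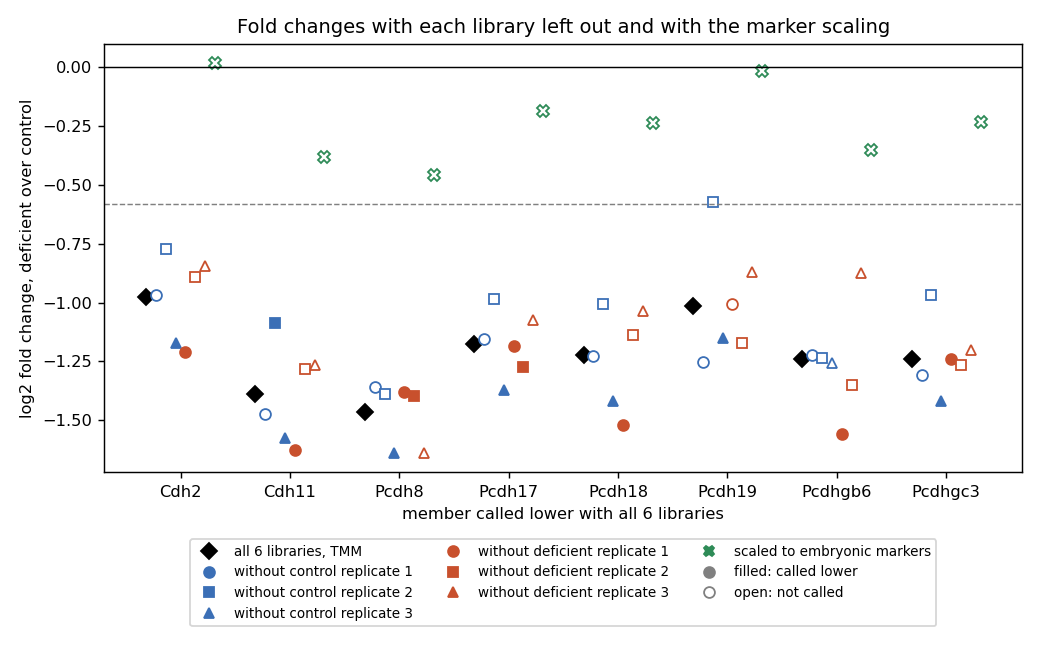
Log2 fold change, deficient over control (vertical axis), of the 8 called members with all 6 libraries (black), with each control (blue) or deficient (red) library left out, and with the libraries scaled to 34 embryonic markers (green crosses). Filled symbols were called lower, and the dashed line is the fold threshold of −0.58; fold changes stayed negative without any library, while with the marker scaling they lay between −0.46 and 0.016 and none was called.

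Catenins link the cytoplasmic tails of classical cadherins to actin. Of 11 tested catenins and junction linkers, 2 were lower and 0 higher. Arvcf, a p120-type catenin that binds the juxtamembrane part of classical cadherins, had 11.2, 15.9 and 9.41 CPM in control libraries and 5.31, 5.12 and 2.84 CPM in deficient libraries, at −1.47 (SE 0.27, adjusted p = 0.0483). Ctnnd2, the neural p120-type catenin, fell by 0.83 on the log2 scale (SE 0.25, adjusted p = 0.0890). Ctnnb1 (beta-catenin) had 379, 384 and 371 CPM against 372, 380 and 391 CPM, a log2 fold change of 0.01 (SE 0.06), and Pkp4, the next in abundance, one of 0.14 (SE 0.07). The median of the list was −0.15. Abundant genes of this kind are expressed in many cell types, and how much of their RNA came from macrophages was not tested.

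Of 11 tested large cadherins, seven-pass cadherins and calsyntenins, all relatives of the members, 2 were lower, 11 had a negative log2 fold change, and the median was −0.81. DESeq2 called 4 of them lower and limma-voom 3. Fat4, a planar polarity cadherin, had 42.8, 56.7 and 28.7 CPM in control libraries and 19.9, 17.9 and 13.2 CPM in deficient libraries, at −1.33 (SE 0.29, adjusted p = 0.0828). Clstn1 (calsyntenin) was at −0.78 (SE 0.19, adjusted p = 0.0734). The 2 most abundant, Fat1 and Celsr2, were not called, at −0.62 (SE 0.42, adjusted p = 0.413) and −0.70 (SE 0.35, adjusted p = 0.272). None of the 9 desmosomal cadherins passed the filter, and their sums were 1.20 to 2.12 CPM in control libraries and 0.568 to 1.10 CPM in deficient libraries. The 2 most abundant were Dsg2, with 1.27, 0.400 and 0.655 CPM against 0.313, 0.366 and 0.142 CPM, and Dsc2, with 0.318, 0.667 and 0.327 CPM against 0.0781, 0.122 and 0.332 CPM.

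Among the 7 cadherin sheddases and gamma-secretase subunits, Psenen was higher, with 13.9, 9.88 and 15.7 CPM in control libraries and 19.9, 17.1 and 23.9 CPM in deficient libraries (log2 fold change 0.61, SE 0.18, adjusted p = 0.0861). No gene of this list was called lower, and Ncstn, at 0.23, passed the adjusted p (0.0779) but not the fold. In edgeR's test 5 of the 7 had an unadjusted p under 0.05, all higher. Every deficient library lay above every control in 5 of the 7, as in 2102 of the 13961 tested genes. Of 12 tested factors that shape or silence the clustered arrays, 0 were called in either direction by edgeR, DESeq2 or limma-voom and 3 had an unadjusted p under 0.05 in edgeR's test. Among these, Setdb1, at −0.33, passed the adjusted p but not the fold. Ctcf, the insulator protein that guides promoter choice in the clusters, had 33.2, 33.9 and 33.6 CPM against 35.4, 33.5 and 31.0 CPM, at −0.02 (SE 0.08). The most abundant of the list, Trim28 and Rad21, were at −0.28 and 0.06. The 11 tested WAVE subunits and kinases had 0 calls in edgeR and limma-voom, 1 lower in DESeq2, and a median of 0.05. An unadjusted p under 0.05 was reached by 4 lower and 4 higher genes, with Nckap1l at 0.24 (adjusted p = 0.0826, under the fold threshold) and Cyfip1 at 0.17. Macrophage markers had a median log2 fold change of 0.18. How much of the RNA of the genes in these lists came from macrophages was not tested.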

How the data were processed

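RNA of GFP+ NCCs from 3 control and 3 BAF155/170-deficient embryos was read as strand-specific poly(A) libraries. The authors trimmed adapters (cutadapt 1.18, with FastQC 0.11.7, per their processing notes), aligned paired-end reads to GRCm38 with STAR, counted reads per gene with featureCounts of Rsubread and deposited the counts as whole numbers without normalization. The annotation release, the strand setting and the handling of multimapping reads are not given in the sources used here. Identifiers were matched to GENCODE M21 without their version (79 of 92 members had the same version, 13 another).

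The counts went through edgeR 4.0.16 under R 4.3.3: filterByExpr (minimum count 10, minimum total count 15), TMM scaling and a robust quasi-likelihood fit with condition as its only term over all genes, with Benjamini-Hochberg adjustment and the call thresholds of the study's methods. Standard errors come from the F statistic. CPM use TMM-scaled library sizes. Library totals ran from 8191219 to 19808620 counts. The common biological coefficient of variation was 12.8%, which is 1 value over all genes and not the spread of the members. In control libraries the SD was 6.48 CPM at a mean of 23.7 CPM for Cdh2, and 0.385 CPM at 15.8 CPM for Pcdh7. The p-values cover the spread between these embryos. Alternatives were DESeq2 1.42.0, limma-voom (limma 3.58.1), library totals, other filters and thresholds, a replicate block, each library left out, and scaling to embryonic markers. Named genes are every called member, the 3 most abundant of each subfamily, and of the partner lists the called and the 2 most abundant genes; all other genes named were chosen with their values seen. A partner gene that this rule names is not reported here. The members, lists and tests were chosen with earlier results of these data known. Promoter windows are RefSeq's for GRCm38.p6 and matched 22 members by symbol. Summaries used Python 3.11.15, pandas 2.3.3 and matplotlib 3.10.9.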

Additional observations from a re-analysis of the deposited data

How the results depend on the processing

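Of 242 values for the 19 named tested members under the alternatives, 183 kept their direction and their side of the thresholds, 40 lost and 11 gained a call, and 8 changed sign. The count of members called lower was 8 under DESeq2 (beside 6.26% of all genes tested in that setting) and 8 with library totals (4.94%). It was 7 under limma-voom (5.94%) and 7 of 19 tested members with a minimum count of 20 (4.81%). Without a filter on low counts it was 10 of 91 tested members (3.02%). At the adjusted p alone it was 13 (7.75%), and at an adjusted p of at most 0.05 it was 2 (0.673%). With 1 library left out the count ran from 0 to 12, and the count called higher was 0 in each of these fits. Scaled to the embryonic markers, 0 members were lower and 2 were higher, beside 0.387% and 63.8% of all genes. With that scaling the log2 fold change turned positive for 6 of the 19 named tested members, Cdh2 (0.016), Cdh6 (0.59), Cdh13 (0.44), Cdh23 (0.51), Pcdh10 (0.63) and Pcdhgb5 (0.48), and for a further 6 tested members. This scaling evens out the median log2 level of the 34 embryonic markers between libraries by construction. With 1 library left out, Cdh23 ran from −0.61 to 0.15 (without control replicate 3) and Pcdh9 from −0.76 (without deficient replicate 2) to 0.94; the cause was not tested. A replicate block gave 9 members lower, adding Cdh24, beside 8.19% of all genes. Same-numbered libraries deviated together only in part (correlations 0.028, −0.034 and 0.293). Only the sample titles give them a shared number, and the authors' library names number the deficient libraries differently from the controls. The block pairs the libraries by title, and these correlations cannot show whether they share a litter or batch. Depth limits the 57 untested members, of which none had more than 74 counts over all libraries. Across all genes, the calls lower were 681 with edgeR, 94 at an adjusted p of at most 0.05, 1082 at the adjusted p alone and 1143 with the block.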
